A study of Homo sapiens with 6 samples.

Results

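Antisense and divergent non-coding RNAs of zinc-finger genes were followed in U-2OS cells, a human osteosarcoma line, labelled with a control siRNA (siCtrl) or an siRNA against SFPQ (siSFPQ). They were taken by name, as rows called ZNF, ZFP, ZSCAN or ZBTB with a suffix of AS (antisense), DT (divergent), IT (intronic) or OT (overlapping), and numbered 90 of the 35036 genes in the table. Of these, 63 were AS, 25 DT and 2 IT, and 0 carried OT. Each group held 3 libraries of poly(A)-selected RNA, and all 6 libraries came from cells given actinomycin D, which blocks transcription and whose dose and duration are not given in the sources used here. No library came from untreated cells. Whether the libraries were separate cultures is not stated, so the p-values measure the spread between these samples, which may be technical. A lower or higher value is a change in the share of the counts and does not separate RNA made from RNA lost, and in bulk RNA fewer cells and less RNA per cell cannot be told apart.

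Zinc-finger genes form the largest family of human transcription factors. Most of their products bind DNA through arrays of C2H2 fingers, and many carry a KRAB domain, which recruits the corepressor TRIM28 and silences transposable elements, or a SCAN or BTB domain, through which they pair with each other. Many KRAB genes lie in tandem clusters on chromosome 19. An antisense RNA is read from the strand opposite to its gene, and a divergent RNA starts beside the gene's promoter and runs away from it. SFPQ is an abundant nuclear protein that binds RNA and DNA, acts in splicing and transcription, and is a core part of paraspeckles, nuclear bodies built on a long non-coding RNA.

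The placement of the rows was checked against GENCODE 29, and 88 of the 90 identifiers were found there, all on the listed strand. The zinc-finger gene was matched for 89, and 87 of these lay on the strand opposite to it. The 2 others were the IT rows, within the spans of their genes on the same strand. Spans overlapped that of the gene for 58 of 62 AS rows and 5 of 25 DT rows, and 23 of the 25 DT rows started within 1 kb of the gene's start. Names and positions therefore matched for nearly all rows. Chromosome 19 held 31 of the 90.

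RefSeq start windows, of 250 bases before to 50 bases after a start, were found for 72 members on GRCh38.p14, and for 64 of them also for the zinc-finger gene. In 36 of those 64 the pair ran head to head with starts 21 to 529 bases apart (median 139), 20 of them DT and 16 AS. Below are 6 such windows, chosen because these RNAs changed in siSFPQ: the first 4 rose and the last 2 fell. Each reads 5′ to 3′ along the RNA's strand, and the capitals mark the stretch from the start of the zinc-finger gene, which runs leftward on the other strand, to the start of the RNA.
ZNF496-DT, chr1:247331804-247332103, plus strand: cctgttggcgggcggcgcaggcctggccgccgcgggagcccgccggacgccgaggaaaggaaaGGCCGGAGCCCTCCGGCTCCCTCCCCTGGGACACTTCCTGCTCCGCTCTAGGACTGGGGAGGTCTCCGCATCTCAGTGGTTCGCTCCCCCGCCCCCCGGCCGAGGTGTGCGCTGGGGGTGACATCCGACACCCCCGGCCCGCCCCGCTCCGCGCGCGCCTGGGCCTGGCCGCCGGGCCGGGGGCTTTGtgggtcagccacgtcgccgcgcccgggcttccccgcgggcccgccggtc
ZNF674-AS1, chrX:46545240-46545539, plus strand: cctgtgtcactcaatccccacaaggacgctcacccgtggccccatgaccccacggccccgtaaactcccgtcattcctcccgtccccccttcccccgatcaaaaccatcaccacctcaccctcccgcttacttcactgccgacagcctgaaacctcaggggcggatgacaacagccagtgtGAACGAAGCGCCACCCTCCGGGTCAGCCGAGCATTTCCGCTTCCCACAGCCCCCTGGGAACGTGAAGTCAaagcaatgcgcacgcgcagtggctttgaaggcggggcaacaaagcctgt
ZNF747-DT, chr16:30534808-30535107, plus strand: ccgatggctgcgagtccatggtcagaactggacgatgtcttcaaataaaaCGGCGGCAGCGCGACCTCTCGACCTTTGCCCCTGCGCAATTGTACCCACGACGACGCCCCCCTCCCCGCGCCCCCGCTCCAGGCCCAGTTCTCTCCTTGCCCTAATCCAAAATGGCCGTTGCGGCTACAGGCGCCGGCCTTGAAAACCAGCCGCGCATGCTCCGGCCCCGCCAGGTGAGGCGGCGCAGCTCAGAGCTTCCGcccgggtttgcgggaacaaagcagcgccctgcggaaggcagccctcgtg
ZNF566-AS1, chr19:36489377-36489676, plus strand: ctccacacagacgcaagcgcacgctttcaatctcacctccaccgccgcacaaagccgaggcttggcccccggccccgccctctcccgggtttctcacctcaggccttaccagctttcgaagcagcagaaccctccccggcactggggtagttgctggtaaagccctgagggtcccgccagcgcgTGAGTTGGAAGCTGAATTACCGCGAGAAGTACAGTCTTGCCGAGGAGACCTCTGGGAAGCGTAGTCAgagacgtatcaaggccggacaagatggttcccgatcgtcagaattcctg
ZNF225-AS1, chr19:44113134-44113433, minus strand: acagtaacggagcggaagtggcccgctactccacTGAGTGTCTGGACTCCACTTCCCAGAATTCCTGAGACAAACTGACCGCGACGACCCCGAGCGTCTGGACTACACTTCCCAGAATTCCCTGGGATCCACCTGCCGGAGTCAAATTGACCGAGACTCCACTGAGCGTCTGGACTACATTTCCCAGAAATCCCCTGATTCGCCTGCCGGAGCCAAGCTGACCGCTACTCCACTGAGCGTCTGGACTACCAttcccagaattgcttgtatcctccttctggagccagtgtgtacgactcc
ZBTB47-AS1, chr3:42654339-42654638, minus strand: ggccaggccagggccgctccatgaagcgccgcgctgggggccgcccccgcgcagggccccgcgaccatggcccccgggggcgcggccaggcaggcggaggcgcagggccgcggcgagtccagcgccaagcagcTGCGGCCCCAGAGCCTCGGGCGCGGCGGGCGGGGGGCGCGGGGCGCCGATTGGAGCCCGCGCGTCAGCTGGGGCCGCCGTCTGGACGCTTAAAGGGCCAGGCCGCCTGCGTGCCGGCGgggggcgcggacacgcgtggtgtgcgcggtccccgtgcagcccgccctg

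The capitals span 187 bases between the starts of ZNF496-DT and ZNF496, 69 for ZNF674-AS1, 200 for ZNF747-DT, 66 for ZNF566-AS1, 216 for ZNF225-AS1 and 117 for ZBTB47-AS1. Member windows were rich in G and C, with a median of 62.5% and 25 CpG dinucleotides over the 72, beside 58.7% and 14 over all 34943 windows. The GC box GGGCGG, searched on both strands like all motifs here, was in 40 of 72 (55.6%), beside 44.9% of all windows. It was in 10 of the 12 windows of members called higher and in 19 of the 35 of the other tested members. The 12 hold ZNF132-DT and ZNF566-AS1, which entered the test through the group in which they were high. A link of any motif with the calls was not tested. CCAAT was in 29.2% of member windows and 34.6% of all, and TATAAA in 6.94% and 11.6%. By the same split, CCAAT was in 3 of the 12 and 12 of the 35, and TATAAA in 0 of the 12 and 4 of the 35. The palindrome TGACGTCA, the cyclic AMP response element, was in 5 member windows (6.94%, beside 1.84% of all), those of ZNF143-AS1, ZNF426-DT, ZNF460-AS1, ZNF561-AS1 and ZSCAN5A-AS1, and of these 4 were tested and 0 called. The window of ZNF225-AS1 held TTCCCAGAA 4 times, a run of letters searched for after it was seen there. It was in 7 of 72 member windows (9.72%) and 1.03% of all, and 4 of the 7 belonged to neighbours on chromosome 19, ZNF45-AS1, ZNF230-DT, ZNF222-DT and ZNF225-AS1. Of the windows of members called higher it was in 0 of 12, and of the other tested members in 3 of 35. No motif searched contains another on either strand. Matches are descriptions of the letters and do not show binding.

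Levels are CPM, read counts as a share of the table's own counts, scaled by TMM factors, and a gene is called when its adjusted p in edgeR's quasi-likelihood test is under 0.05. The table's totals ran from 1298658 to 1599566 counts per library. It held no row for SFPQ or for 9 marker genes of bone, mesenchymal, epithelial, blood and endothelial cells, so neither the knockdown nor the cell type was checked here and the groups rest on the labels. Whether the counting used strand is not given. MALAT1 and TALAM1, on opposite strands of 1 locus, held 72563 and 72552 counts, so reads of overlapping genes cannot be told apart. Exons of coding genes overlapped 50 of the 90 members and 36 of the 51 that could be tested, and counts of those can hold reads of the coding gene.

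Low counts left 51 members to test, 39 AS and 12 DT. Of these, 5 reached the filter's 6.68 CPM in all siSFPQ libraries but not in all siCtrl libraries (ZNF132-DT, ZNF426-DT, ZNF503-AS2, ZNF566-AS1 and ZNF582-DT), and 0 the other way, so these 5 entered the test through the group in which they were high. In siSFPQ 14 were called higher (27.5%) and 4 lower (7.84%), and 33 were not called. The 18 calls of 51 stood beside 48.4% of all tested genes called in either direction. Over all 6325 tested genes 24.5% were called higher and 24.0% lower. The share called higher was thus close to that of the table, and the share called lower was below it. The median log2 fold change was 0.22 over the 51 and 0.01 over all tested genes. Positive values numbered 37 and negative ones 14. Both groups of libraries stood apart without overlap for 27 of the 51, beside 54.0% of all tested genes, and for all 18 called members. With plain library totals in place of TMM, which move the median of all genes to 0.07, the members' median was 0.28.

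**Figure D1:**
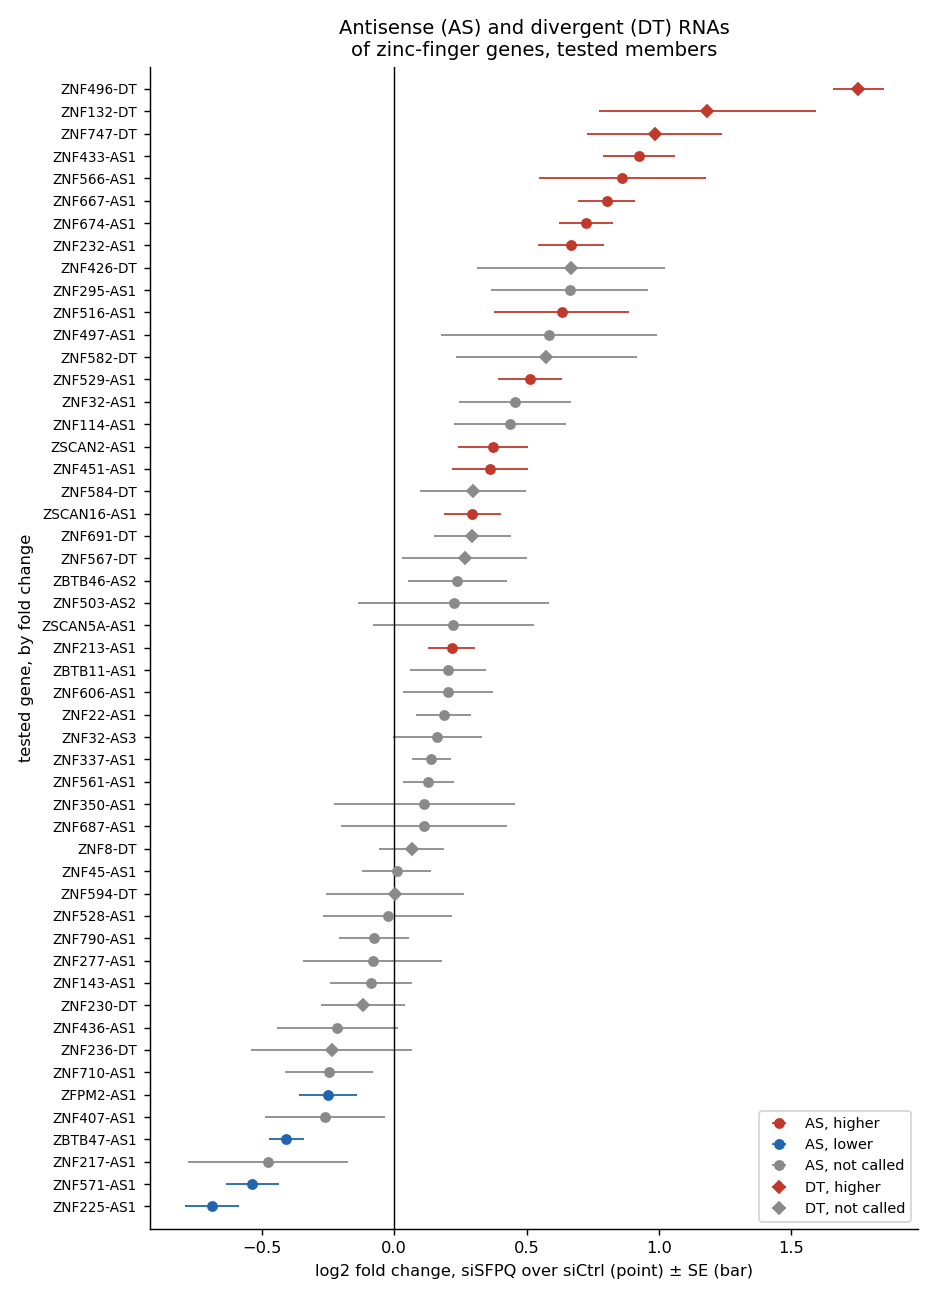
Each point is the log2 fold change of 1 tested member in siSFPQ over siCtrl (x axis) with its SE as a bar, ordered on the y axis by fold change. Circles are AS and diamonds DT, red marks called higher, blue called lower and grey not called. ZNF496-DT stands alone at 1.75, and the 4 called decreases run from -0.25 to -0.69.

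Calls depended on the tool and on single libraries for 8 of the 18. Under every alternative run that tested them, 10 kept their call: ZNF496-DT, ZNF747-DT, ZNF433-AS1, ZNF667-AS1, ZNF674-AS1, ZNF232-AS1 and ZNF529-AS1, all higher, and ZNF225-AS1, ZNF571-AS1 and ZBTB47-AS1, all lower. The same 10 were the members called by DESeq2, 7 higher and 3 lower, where 10.7% and 11.3% of all genes with an adjusted p were called. Without siCtrl replicate 1 only 9 members were called higher.

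Divergent RNAs were 3 of 12 higher (25.0%) and 0 lower, beside 24.5% and 24.0% of all tested genes. The share called higher was thus close to that of the table. ZNF496-DT (ENSG00000289234, chromosome 1, 247332054 to 247393867, plus strand) runs from the promoter of ZNF496, a SCAN and KRAB zinc-finger gene. Its level was 74.9, 74.1 and 74.8 CPM in the siCtrl libraries and 249.7, 237 and 269 CPM in the siSFPQ libraries. Every siSFPQ library lay over 3 times as high as every siCtrl library. The means were 74.6 ± 0.473 and 252 ± 16.2 CPM (SD, n = 3), a log2 fold change of 1.75 ± 0.10 (SE, edgeR, adjusted p = 5.1e-72). By p it ranked 20 among the 6325 tested genes and 2 among the 301 tested DT rows. Its listed span holds no exon of a coding gene in GENCODE 29, a release that lacks this identifier. The 1 other row within the span, ENSG00000286216 on the other strand, held 0, 1 and 4 counts in siCtrl and 2, 1 and 1 in siSFPQ.

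ZNF747-DT (ENSG00000235560, chromosome 16, 30534752 to 30554807) had 12.1, 11.6 and 10.5 CPM in siCtrl and 22.1, 23.7 and 22.0 CPM in siSFPQ. All 3 siSFPQ values were near 2 times the siCtrl ones, and the difference was 0.98 ± 0.25 on the log2 scale (edgeR, adjusted p = 0.00043). Its exons overlap those of ZNF747, a KRAB zinc-finger gene, whose reads it may hold. ZNF132-DT (ENSG00000269473, chromosome 19, 58440448 to 58445849), beside the KRAB gene ZNF132, rested on few counts, 2, 9 and 5 in siCtrl and 14, 14 and 11 in siSFPQ. The groups did not overlap, but no siCtrl library reached the filter's 6.68 CPM, so the row was tested only because of its siSFPQ level. Its log2 fold change was 1.18 ± 0.41 (edgeR, adjusted p = 0.010). It was not called without siCtrl replicate 1 (0.79, adjusted p = 0.15), without siSFPQ replicate 1 (adjusted p = 0.063) and with DESeq2 (adjusted p = 0.19), and its adjusted p ran from 0.0053 to 0.19 over the alternatives.

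The other 9 divergent RNAs were not called. Their log2 fold changes ran from -0.24 for ZNF236-DT to 0.67 for ZNF426-DT (edgeR, adjusted p = 0.55 and 0.11), and ZNF8-DT and ZNF594-DT were near 0 at 0.07 and 0.00. ZNF582-DT, ZNF584-DT, ZNF691-DT and ZNF567-DT had 0.58, 0.30, 0.29 and 0.27, and ZNF230-DT had -0.12. The median of the 12 was 0.30. This holds ZNF132-DT, ZNF426-DT and ZNF582-DT, which entered the test through the group in which they were high. With no filter the median was 0.26 over 21 DT members, and with 1 CPM in 3 libraries as the filter 0.29 over 17. Among the 289 other tested DT rows the median in the main fit was 0.20, with 36.7% called higher and 14.2% lower. The difference between these lists was not tested.

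**Figure D2:**
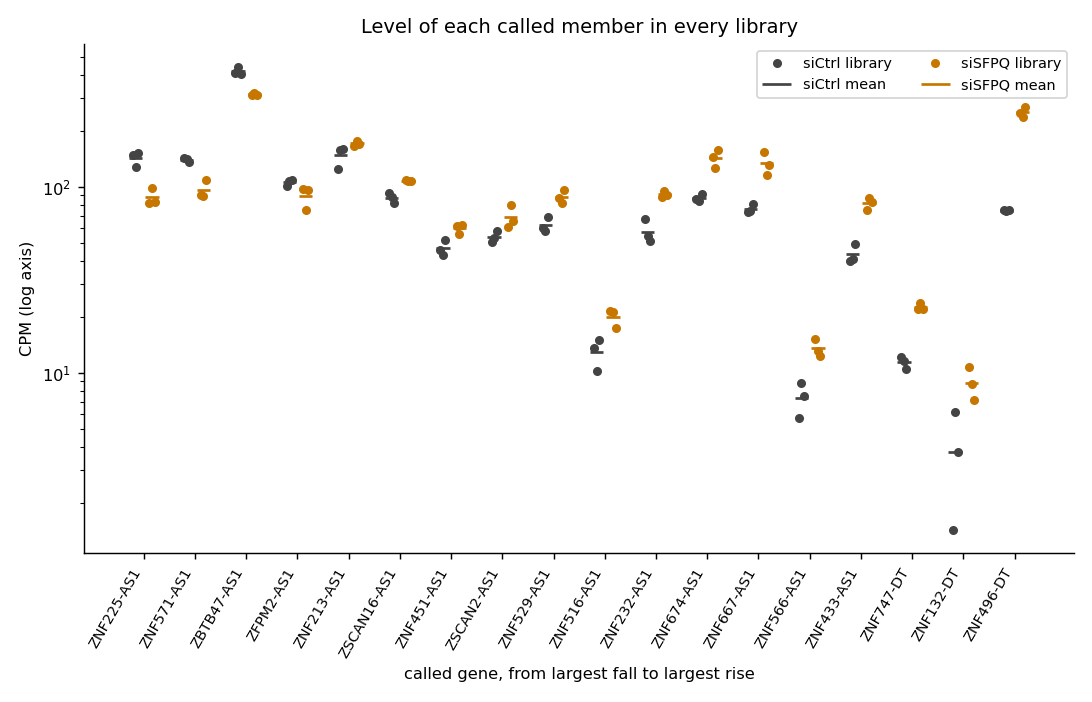
The y axis gives CPM on a log scale for the 18 called members, ordered on the x axis from the largest fall to the largest rise. Points are single libraries, siCtrl in grey and siSFPQ in orange, and short lines are means of 3. The groups do not overlap for any of the 18, and the gap is widest for ZNF496-DT.

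Antisense RNAs were 11 of 39 higher (28.2%), 4 lower (10.3%) and 24 not called, beside 24.5% higher and 24.0% lower over all tested genes. ZNF667-AS1 (ENSG00000166770, chromosome 19, 56477250 to 56504362), known as an RNA that DNA methylation silences in many cancers, had 73.5, 74.1 and 80.8 CPM in siCtrl and 155, 116 and 131 CPM in siSFPQ. Its lowest siSFPQ library was well above its highest siCtrl library, and the log2 fold change was 0.80 ± 0.11 (edgeR, adjusted p = 1.1e-12). ZNF674-AS1 (ENSG00000230844, chromosome X, 46545438 to 46564444), head to head with the X-linked KRAB gene ZNF674, had 85.6, 83.6 and 91.3 CPM in siCtrl and 145, 127 and 158 CPM in siSFPQ. It shares no coding exon in GENCODE 29 and rose by 0.72 ± 0.10 on the log2 scale (edgeR, adjusted p = 2.4e-11).

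ZNF433-AS1 (ENSG00000219665, chromosome 19, 11987617 to 12046275) starts past the far end of ZNF433, another KRAB gene, and runs through it on the other strand. It had 40.0, 40.8 and 49.4 CPM in siCtrl and 75.6, 87.2 and 82.7 CPM in siSFPQ, and it rose by 0.93 ± 0.13 on the log2 scale (edgeR, adjusted p = 7.8e-11). ZNF232-AS1 (ENSG00000234327, chromosome 17, 5096979 to 5114382), opposite the SCAN gene ZNF232, had 67.1, 54.4 and 50.9 CPM in siCtrl and 88.6, 94.7 and 90.5 CPM in siSFPQ (log2 fold change 0.67 ± 0.12, edgeR, adjusted p = 4.1e-07). For both, every siSFPQ library lay above every siCtrl library. ZNF529-AS1 (ENSG00000233527, chromosome 19, 36573070 to 36594708) had 59.9, 57.8 and 68.8 CPM in siCtrl and 87.0, 82.2 and 96.3 CPM in siSFPQ (0.51 ± 0.12, edgeR, adjusted p = 0.00012). Exons of these 3 RNAs and of ZNF667-AS1 overlap those of their zinc-finger genes, whose reads their counts can hold.

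The other 6 antisense RNAs called higher lost their call under some alternatives. All 6 missed the threshold with DESeq2 (adjusted p from 0.18 to 0.26), and all but ZSCAN2-AS1 with no filter (adjusted p from 0.059 to 0.11 in edgeR). ZNF566-AS1 (ENSG00000267309), which overlaps exons of the KRAB gene ZNF566, had 5.71, 8.83 and 7.48 CPM in siCtrl and 15.3, 13.1 and 12.3 CPM in siSFPQ, which gave 0.86 ± 0.32 on the log2 scale (edgeR, adjusted p = 0.016). The adjusted p was 0.094 without siCtrl replicate 1 and 0.057 without siSFPQ replicate 1. ZNF516-AS1 (ENSG00000265778), inside ZNF516, a gene linked to brown fat, had 13.6, 10.2 and 14.96 CPM in siCtrl and 21.4, 21.2 and 17.5 CPM in siSFPQ. Its log2 fold change was 0.63 ± 0.25 (edgeR, adjusted p = 0.029), and without siCtrl replicate 2 it was 0.47 (adjusted p = 0.17). The call of ZNF516-AS1 was also lost without siCtrl replicate 1 (0.050), siSFPQ replicate 1 (0.073) or siSFPQ replicate 2 (0.088). The row ENSG00000303238 on the other strand of the same stretch, with 5, 5 and 9 counts in siCtrl and 15, 15 and 11 in siSFPQ, was called higher too (1.01, edgeR, adjusted p = 0.022), and its reads may be the same ones. Both antisense RNAs had few counts, never passing 21.4 CPM.

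Smaller increases were those of ZSCAN2-AS1 (0.37), ZNF451-AS1 (0.36), ZSCAN16-AS1 (0.30) and ZNF213-AS1 (0.22), with adjusted p of 0.013, 0.026, 0.016 and 0.032 in edgeR. ZSCAN2 and ZSCAN16 are SCAN genes whose exons overlap their antisense RNAs, ZNF451 encodes a SUMO ligase, and ZNF213 carries both SCAN and KRAB domains. Exons of BAG2 and ZNF451 overlap 1129 bases of ZNF451-AS1, and exons of ZNF205 overlap 399 bases of ZNF213-AS1. All these counts can hold reads of coding genes. The row ENSG00000291159, whose span overlaps that of ZSCAN2-AS1 on the other strand, held 3951 counts beside 537 of the member. It was called higher too (0.18, edgeR, adjusted p = 0.010). Overlap of their exons was not checked, so whether this pair shares reads was not tested. ZSCAN16-AS1 lost its call without siCtrl replicate 3 (adjusted p = 0.10). ZSCAN2-AS1 lost it without siCtrl replicate 1 (adjusted p = 0.063) or siSFPQ replicate 2 (log2 fold change 0.25, adjusted p = 0.19). ZNF451-AS1 lost it without siCtrl replicate 1 (0.073), siCtrl replicate 2 (0.14), siSFPQ replicate 1 (0.063) or siSFPQ replicate 3 (0.084). For ZNF213-AS1, siCtrl replicate 1 stood low, with 125 CPM beside 158 and 161, and without it the log2 fold change was 0.10 (adjusted p = 0.42); leaving out siSFPQ replicate 2 or 3 gave an adjusted p of 0.11 or 0.063.

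The largest fall among the members was that of ZNF225-AS1 (ENSG00000186019, chromosome 19, 44103007 to 44113176), head to head with the KRAB gene ZNF225. It had 148, 128 and 152 CPM in siCtrl and 81.7, 98.4 and 83.4 CPM in siSFPQ, which is -0.69 ± 0.10 on the log2 scale (edgeR, adjusted p = 1.7e-10). Exons of ZNF224 and ZNF225 overlap 2934 bases of it in GENCODE 29, beside a listed exonic length of 6196 bases. Its counts can hold reads of these genes, and their part in the fall was not tested. ZNF571-AS1 (ENSG00000267470, chromosome 19, 37548914 to 37587348), over exons of ZNF540 and ZNF571, had 143, 142 and 135 CPM in siCtrl and 90.9, 89.1 and 109 CPM in siSFPQ (-0.54 ± 0.10, edgeR, adjusted p = 6.4e-07). Both falls were larger than the spread within either group.

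ZBTB47-AS1 (ENSG00000230084, chromosome 3, 42601961 to 42654394) was the most abundant member, with 412, 442 and 404 CPM in siCtrl and 312, 322 and 314 CPM in siSFPQ. It begins at the BTB gene ZBTB47 and reaches exons of NKTR, a cyclophilin-related gene. Its log2 fold change was -0.41 ± 0.07 (edgeR, adjusted p = 6.9e-09). ZFPM2-AS1 (ENSG00000251003), overlapping ZFPM2, which encodes a cofactor of GATA factors, had 101, 107 and 109 CPM in siCtrl and 97.0, 75.4 and 96.3 CPM in siSFPQ. The fall of 0.25 on the log2 scale was called narrowly (edgeR, adjusted p = 0.044) and rested on siSFPQ replicate 2, without which it was -0.13 (adjusted p = 0.40). The call was also lost without siCtrl replicate 2 (0.080) or 3 (0.093), with plain library totals (-0.19, adjusted p = 0.15), with no filter (0.11), with 1 CPM in 3 libraries as the filter (0.065) and with DESeq2 (0.31). Over all alternatives its adjusted p ran from 0.029 to 0.40.

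The 39 antisense members had a median log2 fold change of 0.20, with 28.2% called higher and 10.3% lower. Among the 836 other tested AS rows the median was 0.05, with 26.6% higher and 24.6% lower. No test was made between these lists. Split by coding exons, the 30 AS members over coding exons had a median of 0.22, and the 9 without such overlap one of 0.01, with 2 higher (ZNF674-AS1 and ZNF516-AS1, 22.2%) and 1 lower (ZFPM2-AS1, 11.1%). Among other AS rows the 685 over coding exons had a median of 0.04, and the 151 without such overlap one of 0.12, with 32.5% higher and 21.9% lower. The zinc-finger median was thus above that of other AS rows over coding exons and below it without them. The 6 DT members without coding exons had a median of 0.48 and the 6 with them 0.18. The part of reads from coding genes in these medians was not tested.

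**Figure D3:**
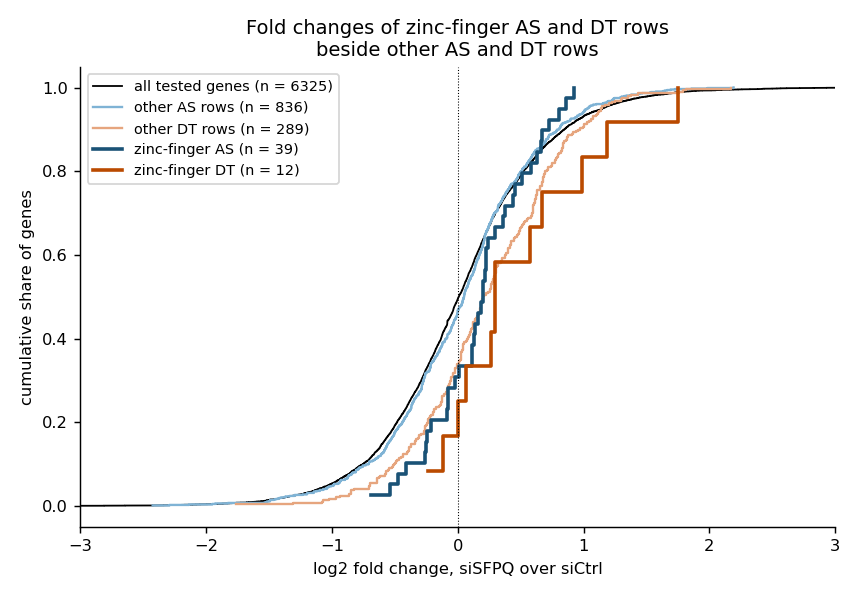
The x axis gives log2 fold change in siSFPQ over siCtrl and the y axis the cumulative share of genes at or below it, from -3 to 3. Dark lines are zinc-finger AS (39) and DT (12) members, pale lines the other AS (836) and DT (289) rows, and black all 6325 tested genes. The lower tails of both zinc-finger lines end at -0.69 and -0.24, inside those of the other rows. The zinc-finger lists are much shorter, and where a tail ends depends on the length of the list.

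Head-to-head pairs went both ways. Of 26 tested members that start head to head with their gene in RefSeq, 8 were called higher (30.8%) and 2 lower (7.69%), with a median of 0.23 on the log2 scale. The 8 hold ZNF132-DT and ZNF566-AS1, which entered the test through the group in which they were high. The same holds for ZNF426-DT and ZNF582-DT, which were not called. Of the 16 other tested members with both windows, 3 were higher (18.8%) and 0 lower, with a median of 0.21. These 16 start on the gene's side of its closest RefSeq start, written as a negative distance. Some lie near it: ZNF497-AS1, ZSCAN5A-AS1, ZNF503-AS2, ZNF436-AS1 and ZBTB11-AS1 stand at -125, -136, -236, -618 and -702 bases. The head-to-head list and these 16 thus do not separate near from distant starts. The 9 tested members without a pair of windows had 3 higher and 2 lower, with a median of 0.22. Over all tested genes the shares were 24.5% and 24.0%, and no test was made between these lists. Starts of the counted rows can differ from those in RefSeq. The rows of ZNF232-AS1 and ZNF529-AS1, both in the head-to-head list and called higher, start 26137 and 32206 bases from the gene's start in GENCODE 29. In RefSeq both pairs start 57 bases apart. ZNF22-AS1, ZNF691-DT and ZNF584-DT, also in that list, have rows that start 235482, 44911 and 6980 bases away. ZNF225-AS1 and ZBTB47-AS1, whose windows are printed above, fell with RefSeq starts 216 and 117 bases from the gene's start. ZNF496-DT and ZNF747-DT rose with RefSeq starts 187 and 200 bases from it.

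**Figure D4:**
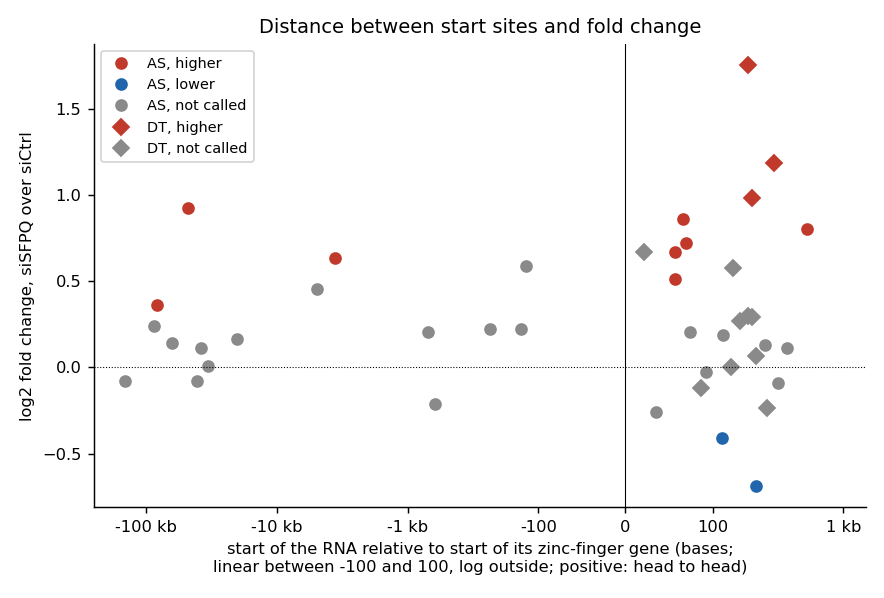
The x axis places the start of each of 42 tested RNAs against the closest start of its zinc-finger gene in RefSeq, in bases, linear near 0 and logarithmic further out, with positive values for head-to-head pairs. The y axis gives log2 fold change in siSFPQ over siCtrl, with colours and shapes for calls and suffixes. Called increases stand on both sides of 0, and the 2 called decreases shown stand on the head-to-head side. Starts of the counted rows can lie elsewhere than the RefSeq starts plotted.

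On chromosome 19, neighbours along the zinc-finger clusters were called in both directions. Of 22 tested members there 5 were higher (22.7%) and 2 lower (9.09%), with a median log2 fold change of 0.24. The 5 hold ZNF566-AS1 and ZNF132-DT, which entered the test through the group in which they were high. The same holds for ZNF426-DT and ZNF582-DT, which were not called. The 336 other tested rows of the chromosome had a median of 0.13, with 30.1% higher and 14.9% lower. In one stretch of the long arm, in order along the chromosome, ZNF566-AS1 (0.86) and ZNF529-AS1 (0.51) were called higher, ZNF567-DT (0.27) and ZNF790-AS1 (-0.08) were not called and ZNF571-AS1 (-0.54) was called lower. In the next, ZNF45-AS1 (0.01) and ZNF230-DT (-0.12) were not called and ZNF225-AS1 (-0.69) was called lower. Towards the end of the arm ZNF667-AS1 and ZNF132-DT were higher, and ZSCAN5A-AS1 (0.22), ZNF582-DT (0.58), ZNF606-AS1 (0.20), ZNF8-DT (0.07), ZNF497-AS1 (0.59) and ZNF584-DT (0.30) were not called. The row ENSG00000268230, on the other strand of ZNF497-AS1, held 707 counts beside 52 of the member and was called higher (0.44, edgeR, adjusted p = 0.00072).

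Genes with several members numbered 6, with 15 members in all, but few were expressed. At ZNF32, ZNF32-AS1 had 18.6, 23.8 and 18.7 CPM in siCtrl and 32.1, 29.3 and 23.3 CPM in siSFPQ. ZNF32-AS3, whose span holds ZNF32-AS1 on the same strand, had 35.7, 36.7 and 38.2 CPM and 42.0, 40.5 and 41.4 CPM. Neither was called (0.46 and 0.16, edgeR, adjusted p = 0.062 and 0.44), and reads of the shorter may count for the longer. ZNF32-AS1 was called with plain library totals (adjusted p = 0.031), without siCtrl replicate 2 (0.047) and without siSFPQ replicate 3 (0.031). At ZNF503 and ZBTB46 only 1 member each was tested, ZNF503-AS2 (0.23, adjusted p = 0.64 in edgeR) and ZBTB46-AS2 (0.24, adjusted p = 0.30). Without siSFPQ replicate 2 these were 0.02 and 0.12, and ZNF503-AS2 was 0.36 without siCtrl replicate 2 and 0.13 without siCtrl replicate 3. At ZNF516, ZNF516-AS1 was tested and its divergent neighbour ZNF516-DT, with 11 counts in all, was not. The 5 ZBTB20 antisense RNAs and both of ZNF385D had too few counts.

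The 6 most abundant members included ZNF337-AS1 and ZNF561-AS1, which were not called. ZNF337-AS1 had 273, 262 and 248 CPM in siCtrl and 295, 289.6 and 279 CPM in siSFPQ, and the groups did not overlap. Its log2 fold change of 0.14 was not called (edgeR, adjusted p = 0.098), except with plain library totals (0.21, adjusted p = 0.012), and it was 0.09 without siCtrl replicate 3. ZNF561-AS1, at 129.9, 130.5 and 108 CPM in siCtrl and 134, 136 and 133 CPM in siSFPQ, had 0.13 (edgeR, adjusted p = 0.27), and 0.03 without siCtrl replicate 3, its lowest library. The 33 members not called ran from -0.48 (ZNF217-AS1) to 0.67 (ZNF426-DT), 23 above 0 and 10 below. Per kb of listed exonic length, the median level of tested members was 7.36 CPM in siCtrl and 9.54 CPM in siSFPQ. ZBTB47-AS1 was highest in both, at 90.8 and 68.4 CPM per kb, followed in siCtrl by ZBTB46-AS2 (46.9) and ZNF32-AS1 (46.9). The listed exons of the last-named pair are short, at 603 and 434 bases. Exons of ZBTB46 and ZNF32 overlap 471 and 236 bases of them in GENCODE 29, so these levels can hold reads of the coding genes.

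Summed over the 90 members, the level was 2914, 2938 and 2898 CPM in siCtrl and 3334, 3258 and 3266 CPM in siSFPQ. Without ZNF496-DT the sums were 2839, 2864 and 2823 CPM and 3084, 3022 and 2997 CPM, a ratio of means of 1.07 in place of 1.13. Among DT members ZNF496-DT made up 21.1% to 21.6% of the sum in siCtrl and 41.0% to 48.7% in siSFPQ. The remaining DT members summed to 275 ± 6.19 and 311 ± 28.8 CPM (SD, n = 3), and siSFPQ replicate 3, at 283 CPM, lay close to siCtrl replicate 1, at 280.4 CPM.

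Other rows of zinc-finger loci in the table, mostly transcribed pseudogenes, were read from the same fit. Of 16 rows 11 were tested, 5 higher, 2 lower (ZNF37BP and ZNF767P, at -0.18 and -1.08, named after their values were seen) and 4 not called. The shares were 45.5% higher and 18.2% lower, beside 24.5% and 24.0% of all tested genes, and the difference was not tested. ZNF542P, a pseudogene on chromosome 19, had 195.5, 196 and 194.5 CPM in siCtrl and 542, 475 and 520.4 CPM in siSFPQ, or 1.39 ± 0.07 on the log2 scale (edgeR, adjusted p = 9.5e-84). ZNF252P rose by 1.00, ZNF271P by 0.64 and ZNF702P by 1.34 on the same scale (edgeR, adjusted p = 4.9e-47, 3.1e-14 and 2.8e-13), with groups that did not overlap. ZNF252P-AS1, the antisense member at ZNF252P, held 13 counts in siCtrl and 10 in siSFPQ and was not tested. Among 11 rows of other zinc-finger names, chosen by name, 8 were tested, of which ZFAS1, a small nucleolar RNA host, rose by 0.24 (edgeR, adjusted p = 4.7e-07), ZSWIM8-AS1 fell by 0.50 (adjusted p = 3.8e-10) and 6 were not called.

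Of the 39 members left out for low counts, 10 had no count in any library and 29 had 1 to 49. A count of 0 in a library allows a level of up to 3 counts, or 1.87 to 2.29 CPM, for counting error only. Among the 29 were both IT rows, ZBTB40-IT1 with 9 counts in siCtrl and 5 in siSFPQ and ZNF346-IT1 with 22 and 15. The most counted were ZNF652-AS1 (21 and 28), ZNF778-DT (30 and 17) and ZNF503-AS1 (26 and 20). These rows were outside the test described here. With no filter 80 of the 90 members could be tested, and with 1 CPM in 3 libraries 70. ZNF778-DT passed the filter without siCtrl replicate 3, in which it had 6 counts, and was then called lower. It entered that test through the 2 remaining siCtrl libraries, in which it was high (12 and 12 counts, beside 4, 8 and 5 in siSFPQ).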

How the data were processed

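RNA of 6 U-2OS libraries, 3 siCtrl and 3 siSFPQ, was counted. Per the labels' protocols, TRIzol RNA was poly(A)-selected and made into stranded libraries. The authors deposited whole-number counts of reads for each gene. Their aligner, counter, annotation and build are not given in the sources used here. Positions were taken as GRCh38 because GENCODE 29 held 13886 of the identifiers, with 13886 on the listed chromosome and 13874 at an overlapping place. Exonic length is the listed one.

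The test was edgeR's quasi-likelihood test (version 4.0.16, R 4.3.3) with TMM factors, a robust fit and group as the sole term. It was two-sided, with Benjamini-Hochberg adjustment over the 6325 genes that filterByExpr kept. The fit was tested on simulated data. SE is the log2 fold change over the square root of F. Coding overlap used GENCODE 29 exons, or the listed span for absent identifiers. RefSeq windows were taken from GRCh38.p14. Members and lists were chosen with earlier results of these data known. Members named with values were the 10 largest called changes each way whose groups did not overlap, the 6 most abundant and those at genes with several members. The other called members were named with fold change, p and the libraries on which the call rested, and further members with the fold change, some with p. Libraries of 1 group differed beyond sampling noise (chi-square per degree of freedom at least 1.24). Alternatives were RLE, upper-quartile and plain scaling, no filter, a filter of 1 CPM in 3 libraries (planned as a stricter one, though it kept 11651 genes), DESeq2 1.42.0, limma-voom (limma 3.58.1), a replicate block, each library left out, and genes without coding exon overlap. Totals per library ran from 1298658 to 1599566 counts, where 3 counts are 1.87 to 2.29 CPM.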

Additional observations from a re-analysis of the deposited data

How the results depend on the processing

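Over all genes, 1547 were called higher and 1516 lower, and RLE and upper-quartile scaling, plain totals, the other filters, limma-voom and each library left out (1382 to 1464 and 1378 to 1440) kept these counts within 1.5 times. DESeq2 gave 854 and 899. A fit on the 2798 tested genes free of coding exons gave 710 and 688, with fewer genes to call. Plain totals raised the share of calls that were higher from 50.5% to 57.5%. Members called higher numbered 14, and 9 with no filter, 7 with DESeq2 and 4 among genes without coding exon overlap, where 1 was lower and 15 were tested. Leaving out single libraries gave 9 to 14 higher and 3 to 4 lower, with a median of 0.16 to 0.22. Antisense members called higher numbered 11, and 6 with no filter, 5 with DESeq2 and 2 without coding exon overlap, where 1 was lower and the median was 0.0053; with single libraries left out they numbered 6 to 10, with 3 to 4 lower and a median of 0.13 to 0.19. Plain totals gave 20 members higher and 3 lower, and medians of 0.28 for all members and 0.27 for antisense ones. Divergent members with single libraries left out were 2 to 4 higher and 0 to 1 lower, with a median of 0.19 to 0.39. Without siCtrl replicate 3, ZNF778-DT was the 1 lower and ZNF582-DT joined those higher. Both passed that filter through the group in which they were high. For the remaining shifts the cause was not tested. The 24 named members had 342 values under alternatives: 301 with the main direction and call, 37 without the call, 4 newly called and 0 reversed. Samples with the same replicate number showed no shared deviation (correlations -0.0047, 0.00097 and 0.010), so no sign of pairing was seen. Counting noise in genes with low counts could hide one, so the check cannot decide whether the numbers pair samples. A replicate block found 1535 genes higher and 1515 lower, and 14 and 4 members. Low counts limit members under about 10 CPM, such as ZNF132-DT.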
